A study of Mus musculus with 12 samples.

Results

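The genes described here encode molecular chaperones, their co-chaperones and proteins of the integrated stress response, measured in mouse striatum after cocaine or saline in SRF mutants and controls. The list names 41 genes, of which 39 had at least 1 probe set annotated to that gene alone, out of 12393 genes named on the arrays in this way. Hsp90ab1 and Hsf1 were not analysed here. The 39 genes had 85 probe sets (the oligonucleotide groups that each give 1 value per array), and 62 of them, standing for 31 genes, passed the filter on dim signals, a log2 signal above 4 on at least 3 of the 12 arrays. By site of action they were 16 cytosolic chaperones and co-chaperones, 12 chaperones and stress genes of the endoplasmic reticulum (ER), 7 genes of the integrated stress response, 3 mitochondrial chaperones and 1 heat shock factor.

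The study measured total RNA of the striatum, nucleus accumbens included, on 12 Affymetrix arrays, 3 animals in each of 4 groups: mutants given cocaine, mutants given saline, controls given cocaine and controls given saline. All mice were female littermates of 10 to 15 weeks, housed singly and killed 1 hour after 1 intraperitoneal injection, with cocaine at 25 mg/kg. The labels record 5 days of handling for every animal. Serum response factor (SRF) is a transcription factor of immediate early and cytoskeletal genes, and the series title gives the question as its part in transcription driven by activity. The labels used here name neither the Srf allele, nor the cells in which it was changed, nor the genotype of the controls beyond that word.

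Groups follow the sample titles; the description field gives other groups, and the treatment text names cocaine for every sample. Srf read 5.01 to 5.49 (log2 signal) on the 6 mutant arrays, against 6.97 to 7.21 on the 6 control arrays. Fos, an immediate early gene, read 9.25 to 9.68 in cocaine-treated and 5.18 to 6.78 in saline-treated mutants, and 8.06 to 8.80 in cocaine-treated and 3.71 to 5.17 in saline-treated controls. Both genes followed the titles on all 12 arrays. Arrays correlated at 0.986 to 0.993 within groups over all tested probe sets. The striatal markers tested, 7 of 10, averaged 9.80 to 9.94 on mutant and 9.44 to 9.52 on control arrays, and no probe set for the cortical markers Tbr1, Neurod6 and Cux2 passed the filter. Ttr, a choroid plexus gene, read 9.61 in replicate 3 of the cocaine-treated controls and 2.83 to 5.90 on the other arrays. In bulk tissue, fewer cells of a type and less RNA per cell cannot be told apart.

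Chaperones of the Hsp70 class bind unfolded protein in cycles of ATP hydrolysis. J-domain proteins (Dnaj) start the cycle by stimulating the ATPase, and nucleotide exchange factors such as Hspa4 reset it; Hsp90 acts later on many of the same clients. In the ER, the Hsp70 protein BiP (Hspa5) works with its own J-domain partners and with protein disulfide isomerases, and unfolded protein there is sensed by the unfolded protein response. In the integrated stress response, kinases phosphorylate the translation factor eIF2α, which lowers general translation and favours that of Atf4; Ppp1r15a directs a phosphatase back to eIF2α.

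Cocaine raised 7 member genes in mutants, and these were J-domain co-chaperones, 1 exchange factor and 3 genes of the integrated stress response. Dnajb1 rose 2.4-fold, Dnajb5 2.02-fold, Hspa4 2.13-fold, Dnajb4 1.63-fold, Ppp1r15a 3.10-fold, Atf4 1.56-fold and Ddit3 1.35-fold, each on the first probe set described below. For Hspa4 and Dnajb4 that is not the brightest probe set. The brightest gave 1.23-fold for Hspa4, without a call, and 1.40-fold for Dnajb4, with a call. In controls Dnajb5 (2.06-fold) and Ddit3 (1.37-fold) rose. In probe sets, 12 of 62 were called higher and 0 lower in mutants (19.4%), where 1.76% of all 11102 tested probe sets were called higher and 0.162% lower. In controls 3 of 62 were called higher and 0 lower (4.84%), where 0.45% of all were called higher and 0% lower. Averaged over the genotypes, 11 of 62 were called higher and 0 lower, in the same 7 genes, where 2.11% of all were called higher and 0.207% lower. A probe set was called at an adjusted p under 0.05 in limma (Benjamini-Hochberg over all tested probe sets), and all calls below are limma's. At an unadjusted p under 0.05, 20 of the 62 passed in mutants (10.7% of all), 12 in controls (6.34% of all) and 19 averaged over the genotypes (11.5% of all). All 3 cocaine values lay above all 3 saline values in 20 of the 62 in mutants (8.4% of all probe sets) and in 12 in controls (6.72% of all), and below them in 2 in mutants (7.65% of all) and 2 in controls (4.51% of all). No called probe set owed its place to the filter, since the lowest log2 signal on any array among those called in any comparison was 4.20. The members were chosen with earlier results of these data known, so these shares are no test of the list. Of the 12 probe sets called in mutants, 8 read highest in cocaine-treated mutant 1 and 8 lowest in cocaine-treated mutant 3.

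**Figure D1:**
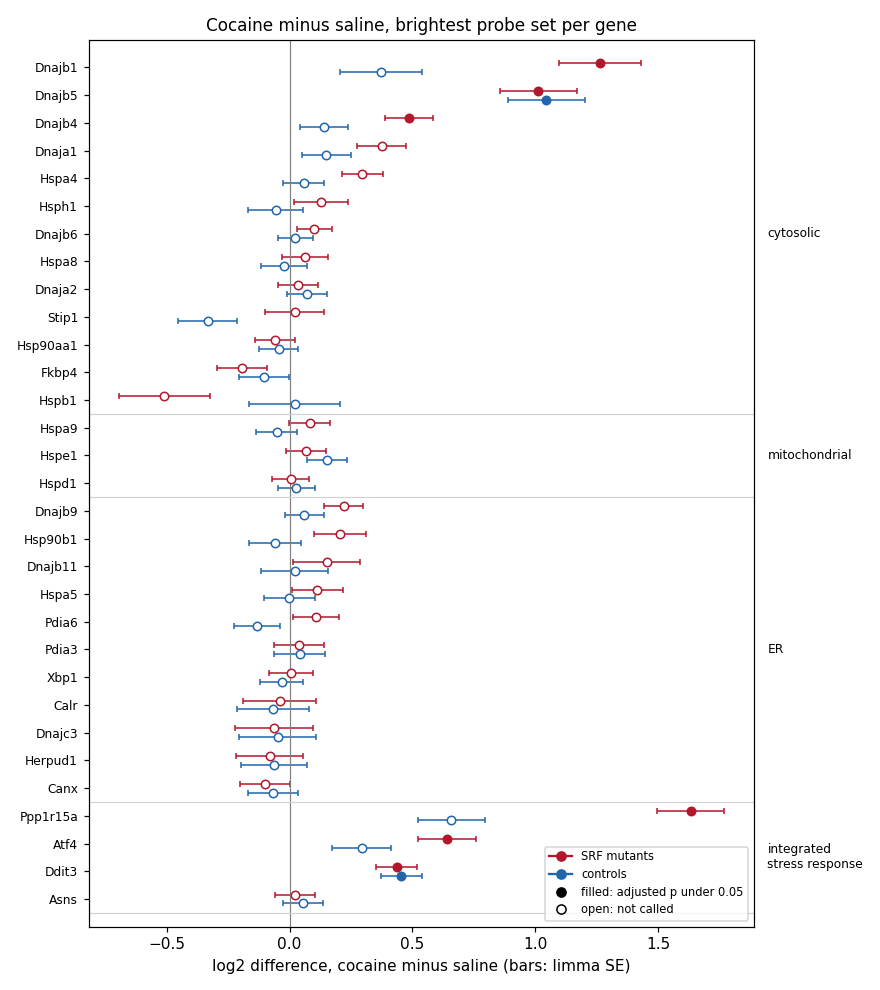
Cocaine-minus-saline differences in log2 signal (horizontal axis, bars are limma's SE) for the 31 tested members, with SRF mutants above controls in each row and the probe set of highest mean signal for each gene; filled points were called. In mutants Ppp1r15a (1.63), Dnajb1 (1.26), Dnajb5 (1.01), Atf4 (0.64), Dnajb4 (0.49) and Ddit3 (0.44) lie farthest to the right; the 11 ER genes lie between -0.10 and 0.22, and Asns, Dnaja2 and Dnajb6 lie within that range too. For Hspa4 the brightest probe set is its uncalled one.

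Dnajb1, the main stress-inducible J-domain partner of cytosolic Hsp70, read 9.39, 8.90 and 8.73 in cocaine-treated mutants, against 7.57, 7.86 and 7.80 in saline-treated mutants (log2 signal). All 3 cocaine values lay above the saline values, and the difference was 1.26 (SE 0.167, adjusted p = 0.000942). In controls it read 8.21, 8.26 and 7.91 after cocaine, against 8.01, 7.70 and 7.56 after saline. Those groups overlapped, with a difference of 0.37 that was not called (SE 0.167, adjusted p = 0.763). A second Dnajb1 probe set differed by 1.12 in mutants (SE 0.122, adjusted p = 0.000191) and by 0.40 in controls (adjusted p = 0.378).

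Dnajb4, another J-domain co-chaperone of cytosolic Hsp70, read 8.07, 7.70 and 7.69 in cocaine-treated mutants, against 6.99, 7.16 and 7.20 in saline-treated mutants. The groups did not overlap, with a difference of 0.70 (SE 0.107, adjusted p = 0.0029). In controls it read 7.39, 7.28 and 7.23 after cocaine, against 7.12, 7.0 and 7.16 after saline, which did not overlap either but gave only 0.21 (SE 0.107, adjusted p = 0.851). Its brighter probe set differed by 0.49 in mutants (adjusted p = 0.0189), a call lost when replicate 1 (adjusted p = 0.108) or 3 (0.0648) of the cocaine-treated mutants was left out, or saline-treated mutant 1 (0.0711).

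Dnajb5, a J-domain protein of the same subfamily, was called in both genotypes. It read 7.20, 7.32 and 7.19 in cocaine-treated mutants, against 5.93, 6.06 and 6.69 in saline-treated mutants. It read 7.07, 7.19 and 6.90 in cocaine-treated controls, against 6.05, 5.99 and 6.0 in saline-treated controls. Neither pair of groups overlapped, and the differences were 1.01 in mutants (SE 0.156, adjusted p = 0.00316) and 1.04 in controls (SE 0.156, adjusted p = 0.00519). The saline-treated mutant with 6.69 was replicate 3, which also had the highest Fos signal of that group (6.78). A second probe set gave 0.90 in mutants (adjusted p = 0.00202) and 1.03 in controls (adjusted p = 0.00135). The third and dimmest gave 1.00 in mutants (adjusted p = 0.0030) and 0.70 in controls, short of the threshold (adjusted p = 0.0858) but past it without cocaine-treated mutant 3 (0.0182). Without the filter on dim signals the first probe set's call in controls was lost (0.0728).

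Hspa4, an Hsp110-type exchange factor for Hsp70, read 8.17, 8.08 and 7.81 in cocaine-treated mutants, against 7.10, 6.80 and 6.88 in saline-treated mutants. In controls it read 7.44, 7.66 and 7.73 after cocaine, against 7.20, 7.13 and 7.01 after saline. The groups did not overlap in either genotype. The difference was 1.09 in mutants (SE 0.116, adjusted p = 0.000177) and 0.50 in controls, where it missed the threshold (SE 0.116, adjusted p = 0.121). In controls it passed narrowly with array weights (0.045) or the trended robust prior (0.0497). The 3 Hspa4 probe sets disagreed in size. The second gave 0.72 in mutants (adjusted p = 0.0422), a call lost in 8 of the 12 fits that left out 1 array (adjusted p 0.0572 to 0.208), in which all 6 mutant arrays, replicate 1 of the cocaine-treated and replicate 2 of the saline-treated controls were left out in turn. The brightest gave 0.30 (adjusted p = 0.122).

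Ppp1r15a (GADD34), the stress-induced subunit that returns phosphatase 1 to eIF2α, showed the largest member difference with cocaine in mutants. It read 5.81, 6.19 and 6.14 in cocaine-treated mutants, against 4.20, 4.39 and 4.66 in saline-treated mutants, a difference of 1.63 (SE 0.135, adjusted p = 1.75e-05). It read 5.03, 5.08 and 5.33 in cocaine-treated controls, against 4.37, 4.62 and 4.48 in saline-treated controls. The control groups did not overlap either, and their difference of 0.66 (SE 0.135) lay just short of the threshold (adjusted p = 0.0611). It passed when mutants were left out singly, cocaine-treated mutant 1 (adjusted p = 0.0415) or saline-treated mutant 1 (0.0455) or 3 (0.0373), and with array weights (0.0286) or the trended robust prior (0.0469).

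Atf4, the transcription factor whose translation eIF2α phosphorylation favours, read 7.89, 7.82 and 7.52 in cocaine-treated mutants, against 7.0, 7.13 and 7.19 in saline-treated mutants. In controls it read 7.31, 7.40 and 7.28 after cocaine, against 7.29, 6.88 and 6.95 after saline. The mutant groups were apart and differed by 0.64 (SE 0.119, adjusted p = 0.0125), and the control groups overlapped, with 0.29 (adjusted p = 0.693). The mutant call was lost when cocaine-treated mutant 1 (adjusted p = 0.0783) or 2 (0.0661) was left out, or saline-treated mutant 1 (0.0626). A dimmer Atf4 probe set gave 0.50 in mutants and was not called (adjusted p = 0.117), except without saline-treated control 1 (0.0353).

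Ddit3 (CHOP), a C/EBP-family factor downstream of Atf4, read 7.10, 7.21 and 7.25 in cocaine-treated mutants, against 6.82, 6.63 and 6.79 in saline-treated mutants. It read 7.13, 7.24 and 7.07 in cocaine-treated controls, against 6.77, 6.63 and 6.68 in saline-treated controls. The shift was nearly the same size in both genotypes, 0.44 in mutants (SE 0.0838, adjusted p = 0.0153) and 0.45 in controls (SE 0.0838, adjusted p = 0.0311), with no overlap. The control call was lost without any 1 of the 3 cocaine-treated controls (adjusted p = 0.121, 0.168 and 0.0623 without replicates 1, 2 and 3) and without replicates 2 (0.139) or 3 (0.147) of the saline-treated controls. The mutant call was lost when cocaine-treated mutant 2 (0.0662) or 3 (0.0675) was left out, or saline-treated mutant 2 (0.0799). With only the 2 groups of each comparison fitted, both calls were lost (0.0616 in mutants and 0.118 in controls).

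**Figure D2:**
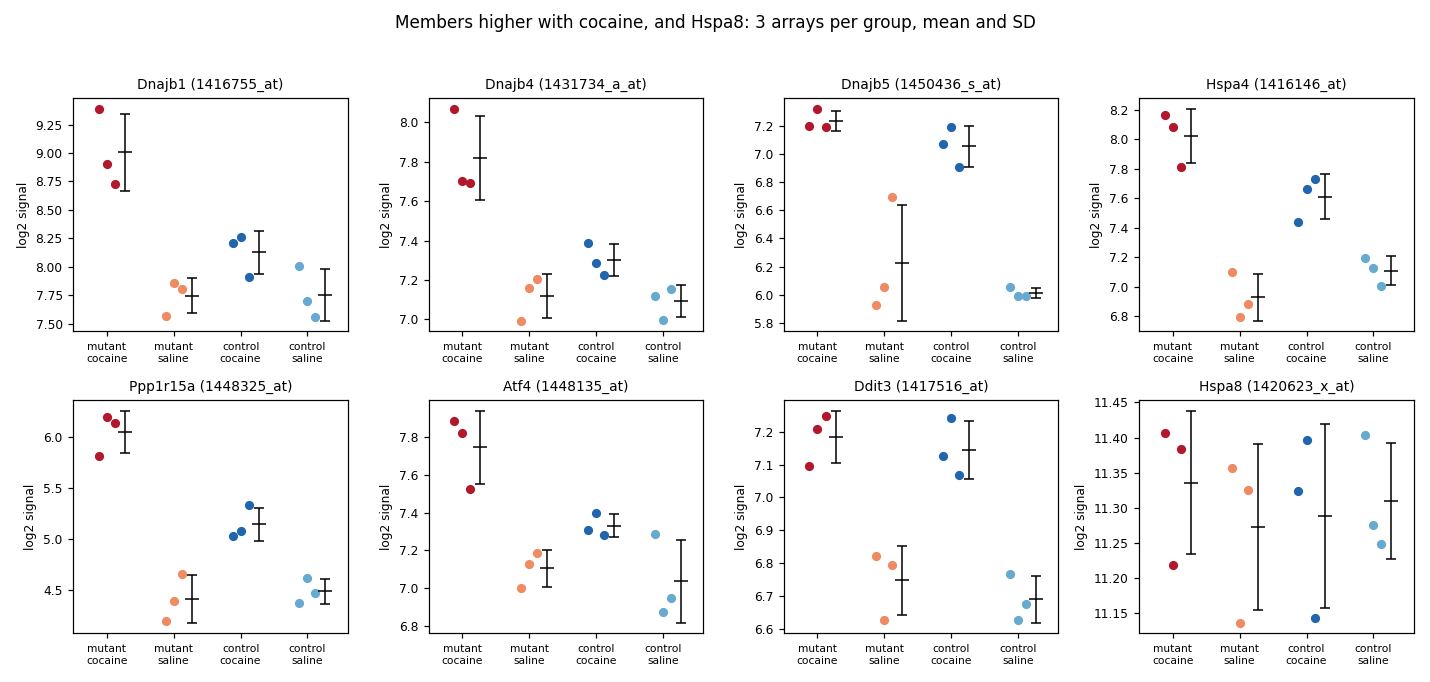
Log2 signal on each array (points, 3 per group) with the group mean and SD (black), for the 7 members called higher with cocaine and for Hspa8; each panel has its own vertical range. Dnajb1, Dnajb4 and Ppp1r15a are highest in cocaine-treated mutants, Dnajb5 and Ddit3 are higher after cocaine in both genotypes, and the Hspa8 groups overlap between 11.1 and 11.4.

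Among the listed members, the cytosolic Hsp70 and Hsp90 mRNAs that could be tested were those of Hspa8 and Hsp90aa1. Neither had a called change with cocaine. Hspa8, the constitutive Hsp70, read 11.41, 11.22 and 11.38 in cocaine-treated mutants, against 11.36, 11.14 and 11.32 in saline-treated mutants. It read 11.32, 11.40 and 11.14 in cocaine-treated controls, against 11.40, 11.28 and 11.25 in saline-treated controls, so that all 4 groups overlapped. The dimmest Hspa8 probe set differed by 0.70 in mutants and 1.03 in controls without a call (adjusted p = 0.412 and 0.351), with saline signals of 3.46 to 4.26. On it the control groups did not overlap, with 4.90 to 5.26 after cocaine against 3.81 to 4.26 after saline. Averaged over the genotypes it differed by 0.87, just short of the threshold (adjusted p = 0.0586). The Hsp90 gene Hsp90aa1 gave -0.06 to 0.13 over 3 probe sets in mutants and -0.10 to -0.01 in controls. Hspa1a and Hspa1b, the heat-inducible Hsp70 genes, stayed below the filter with log2 signals of 2.89 to 4.05 on all arrays; these near-identical copies can share probes.

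Of the other cytosolic members, Dnaja1, a J-domain protein of the A subfamily, came nearest to a call, with 0.37 in mutants (adjusted p = 0.093) and 0.15 in controls (adjusted p = 0.925). Its dimmer probe set gave 0.20 in mutants (adjusted p = 0.361) and 0.19 in controls (adjusted p = 0.734). On both probe sets the cocaine values lay above the saline values in each genotype. The small heat shock gene Hspb1 gave -0.51 in mutants (SE 0.185, adjusted p = 0.284), with dim signals of 3.72 to 4.07 after cocaine, against 4.23 to 4.67 after saline. Stip1, which links Hsp70 to Hsp90, gave 0.02 in mutants and -0.33 in controls (adjusted p = 0.987 and 0.599). Dnaja2, Dnajb6, Hsph1 and the Hsp90 partner Fkbp4 lay between -0.19 and 0.24 in mutants over all their tested probe sets. Bag3, a co-chaperone that couples Hsp70 to autophagy, and the heat shock factor Hsf2 stayed below the filter, at 2.96 to 3.02 and 2.69 to 2.80.

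By class, 9 of 29 cytosolic, 3 of 6 integrated stress response, 0 of 22 ER and 0 of 5 mitochondrial probe sets were called higher with cocaine in mutants. In controls these counts were 2 of 29, 1 of 6, 0 of 22 and 0 of 5, and no member was called lower in either genotype. Of all probe sets, 1.76% were called higher in mutants and 0.45% in controls. Counts of 0 in the ER and mitochondrial classes lie near those shares, and nothing is read from them about these classes. At an unadjusted p under 0.05, 15 of 29 cytosolic and 4 of 6 integrated stress response probe sets passed in mutants (10.7% of all). There 1 of the 22 ER and 0 of the 5 mitochondrial probe sets passed. In controls 9, 3, 0 and 0 passed in the same order (6.34% of all). With 1 probe set per gene, the median difference in mutants was 0.54 over 4 integrated stress response genes, 0.10 over 13 cytosolic genes, 0.07 over 3 mitochondrial genes and 0.04 over 11 ER genes, against -0.01 over all tested genes. In controls the medians were 0.37, 0.02, 0.03 and -0.05, against 0.00062 over all tested genes. The integrated stress response median was smaller without the filter, 0.22 in mutants and 0.056 in controls, and in controls it was 0.18 with all tested probe sets. The integrated stress response median rests on Ppp1r15a, Atf4 and Ddit3: the fourth tested gene, Asns (asparagine synthetase, a target of Atf4), read 7.97, 8.03 and 7.97 in cocaine-treated mutants, against 7.92, 7.97 and 8.02 in saline-treated mutants. In controls Asns read 8.16, 8.20 and 8.05 after cocaine, against 8.24, 8.0 and 8.01 after saline, again with overlap. The other members of this class, Trib3, Sesn2 and Ddit4, known as stress-induced genes, stayed below the filter, at 2.71 to 3.05, 2.53 to 2.89 and 2.93 to 3.49.

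Among the mitochondrial chaperones, Hspe1, the co-chaperonin of Hspd1, read 9.07, 8.93 and 8.95 in cocaine-treated mutants, against 8.90, 8.93 and 8.92 in saline-treated mutants. It read 9.12, 9.05 and 8.88 in cocaine-treated controls, against 8.87, 8.91 and 8.81 in saline-treated controls. Both pairs of groups overlapped. The chaperonin Hspd1 gave 0.0050 in mutants and 0.03 in controls, and the mitochondrial Hsp70 gene Hspa9 gave 0.07 and 0.08 over 2 probe sets in mutants and -0.04 and -0.05 in controls.

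Of genes of these pathways outside the list, 3 of 72 rose with cocaine in mutants (4.17%), where 2.27% of all tested genes did, and 0 fell. Of 30 tested further chaperone genes 2 rose: Hspa14, an Hsp70-related gene of the ribosome-associated complex (0.97, adjusted p = 0.000177; its dimmer probe set 0.46), and Unc45a, a myosin and Hsp90 co-chaperone (0.46 on 1 of 2 probe sets, adjusted p = 0.0458). Of 20 further ER genes 1 rose, the protein disulfide isomerase gene P4hb (0.33, adjusted p = 0.0296). Of 22 further integrated stress response genes, which include its kinases and amino acid transporters, 0 were called in limma. At an unadjusted p under 0.05, 2 of these 22 genes passed on any probe set, where 10.7% of all probe sets did in mutants. That share counts probe sets and not genes, so the 2 measures are unlike. In controls 0 of these 72 genes were called in limma with cocaine, where 0.631% of all tested genes were called higher. At an unadjusted p under 0.05, 5 of the 72 passed on any probe set in controls, where 6.34% of all probe sets did, again unlike measures. Counts of 0 lie near these shares, and nothing is read from them. The astrocyte gene Gfap fell with cocaine in mutants (-1.02, adjusted p = 0.0303), as 1 of 8 astrocyte markers; 0 of 7 oligodendrocyte, 0 of 7 microglial and 0 of 3 endothelial markers were called in limma, with 0, 2 and 0 at an unadjusted p under 0.05. The 8 astrocyte markers together averaged 7.05 to 7.16 in cocaine-treated and 7.09 to 7.24 in saline-treated mutants, and its part in the member differences was not tested.

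The stretches before the transcription starts of the risers are shown because these genes were called higher with cocaine in mutants. Whether they share a regulator was not tested. Sequences are RefSeq's for GRCm38.p6, 150 bases up to the start, 5′ to 3′ on the gene's strand, and the start farthest upstream was taken where a gene has several; 36 of the 39 members had an entry. Capitals mark matches, on either strand, to a full cAMP response element (CRE, TGACGTCA) or its half-site TGACG, to heat shock elements of 2 units (GAANNTTC or TTCNNGAA) or of 3 (the same with a further unit in the same alternation), to the ER stress element (CCAAT and CCACG with 9 bases between them) or to the amino acid response core TGATGNAA.
Ppp1r15a (chr7:45526269-45526418, minus strand): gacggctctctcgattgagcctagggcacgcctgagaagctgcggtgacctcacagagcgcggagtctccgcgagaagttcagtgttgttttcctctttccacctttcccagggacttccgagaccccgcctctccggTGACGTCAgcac
Dnajb1 (chr8:83608025-83608174, plus strand): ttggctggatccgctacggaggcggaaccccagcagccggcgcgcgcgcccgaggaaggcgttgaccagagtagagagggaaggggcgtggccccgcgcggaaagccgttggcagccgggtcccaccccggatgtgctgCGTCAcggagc
Dnajb4 (chr3:152210084-152210233, minus strand): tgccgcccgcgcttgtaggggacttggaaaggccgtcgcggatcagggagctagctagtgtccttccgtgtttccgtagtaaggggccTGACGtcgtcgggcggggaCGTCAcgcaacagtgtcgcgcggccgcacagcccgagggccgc
Dnajb5 (chr4:42949717-42949866, plus strand): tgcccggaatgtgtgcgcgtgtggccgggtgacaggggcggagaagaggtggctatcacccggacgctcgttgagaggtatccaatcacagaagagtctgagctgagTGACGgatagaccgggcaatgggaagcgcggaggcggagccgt
Hspa4 (chr11:53300480-53300629, minus strand): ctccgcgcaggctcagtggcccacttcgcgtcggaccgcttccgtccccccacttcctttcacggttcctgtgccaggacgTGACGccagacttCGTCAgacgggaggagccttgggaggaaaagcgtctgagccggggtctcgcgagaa
Atf4 (chr15:80255034-80255183, plus strand): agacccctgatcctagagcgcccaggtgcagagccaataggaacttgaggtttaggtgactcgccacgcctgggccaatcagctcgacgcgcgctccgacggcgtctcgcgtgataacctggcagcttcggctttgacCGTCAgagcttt
Ddit3 (chr10:127290643-127290792, plus strand): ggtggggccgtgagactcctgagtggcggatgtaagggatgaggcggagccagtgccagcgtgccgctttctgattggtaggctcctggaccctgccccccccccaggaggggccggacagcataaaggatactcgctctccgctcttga

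In the 250 bases before the start, Ppp1r15a was the member with a full CRE, 12 to 5 bases upstream; 1.55% of all 32851 promoter entries hold one. CRE half-sites, which every full CRE contains and which were a search added after the values were seen, lay in these 250 bases of 24 of 45 member promoters (53.3%) and of 17.8% of all. At the starts shown, 6 of the 7 risers had a half-site and Ddit3 had none. The downstream start of Dnajb1 had none either. The half-site holds a CG pair, and the median GC content was 64% in member promoters and 52.4% in all (55.6% in those of protein-coding genes). A heat shock element of 3 units was found in 4 of 45 member promoters (8.89%, against 0.466% of all), those of Dnajb6, Hspd1 and Hspe1, which were not called with cocaine. Hspd1 and Hspe1 lie head to head and share the same bases. No member promoter matched the CArG box, the SRF binding motif, in this window, where 1.47% of all do. A 2-unit heat shock element, which every 3-unit one contains, occurred in 28.9% of member and 12.8% of all promoters, and among the risers at the downstream start of Dnajb4.
Hspe1 (chr1:55087998-55088147, plus strand): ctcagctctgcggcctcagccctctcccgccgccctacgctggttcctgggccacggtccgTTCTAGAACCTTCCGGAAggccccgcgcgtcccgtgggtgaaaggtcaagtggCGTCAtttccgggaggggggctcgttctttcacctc

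Between genotypes under saline, 2 of 62 member probe sets were called lower in mutants (3.23%), where 1.64% of all were called lower, and 0 of 62 higher, where 1.34% of all were. With counts this close to the share of all probe sets, nothing is read from them about the members as a group. The 2 were the second Hspa5 probe set (1.40-fold lower, adjusted p = 0.043) and Pdia6 (1.38-fold lower, adjusted p = 0.0165). Both calls were lost when only the saline-treated groups were fitted (0.0558 and 0.0905), and the brighter Hspa5 probe set was not called (-0.39, adjusted p = 0.0674). That brighter probe set passed with a stricter filter, a log2 signal above 6 (0.0349), and with the trended robust prior (0.0202). At an unadjusted p under 0.05, 5 of the 62 passed (15.6% of all). In 2 of the 62 all mutants lay above all controls (9.18% of all) and in 5 below them (9.73% of all). None of the 7 genes that rose with cocaine was called between genotypes under saline. Ppp1r15a differed by -0.07, Ddit3 by 0.06, Atf4 by 0.07 and -0.06, and Dnajb4 by 0.03 and 0.01. The 3 Dnajb5 probe sets differed by 0.21, 0.25 and -0.08 and the 3 of Hspa4 by -0.18, -0.26 and 0.03, with overlap between the groups in each. Dnajb1 differed by -0.01 and, on its second probe set, by 0.17 (adjusted p = 0.557), where all 3 mutants lay above all 3 controls.

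After cocaine, mutants exceeded controls in 5 of 62 member probe sets (8.06%), where 2.27% of all were called higher, and 0 were called lower, where 1.92% of all were; 20 of the 62 passed an unadjusted p under 0.05 (17.2% of all). The 4 genes were Ppp1r15a (1.87-fold, log2 difference 0.90, SE 0.135, adjusted p = 0.00202), Dnajb1 (1.84-fold, 0.88, SE 0.167, adjusted p = 0.00908, and 0.89 on its second probe set), Dnajb4 (1.43-fold, 0.52, SE 0.107, adjusted p = 0.0145) and the ER gene Dnajb9. The brighter Dnajb4 probe set was not called (0.36, adjusted p = 0.0565), but passed without saline-treated mutant 1 (0.0288). By the values given above, all 3 cocaine-treated mutants exceeded all 3 cocaine-treated controls for Ppp1r15a, Dnajb1, Dnajb4, Atf4 and, on 2 of 3 probe sets, Hspa4; in all 16 member probe sets lay wholly above (10.7% of all probe sets do) and 8 wholly below (13.8% of all). Atf4 (0.42, adjusted p = 0.0755) and Hspa4 (0.41, adjusted p = 0.0711) were not called; both passed without cocaine-treated mutant 3 (0.0380 and 0.0389), and Atf4 also without saline-treated control 1 (0.0327). This comparison shares its cocaine-treated mutants with the cocaine comparison in mutants. Without the filter the first Dnajb1 call was lost (adjusted p = 0.0535). The Dnajb4 call was lost when cocaine-treated mutant 1 (adjusted p = 0.0532) or cocaine-treated control 2 (0.0525) or 3 (0.0659) was left out.

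**Figure D3:**
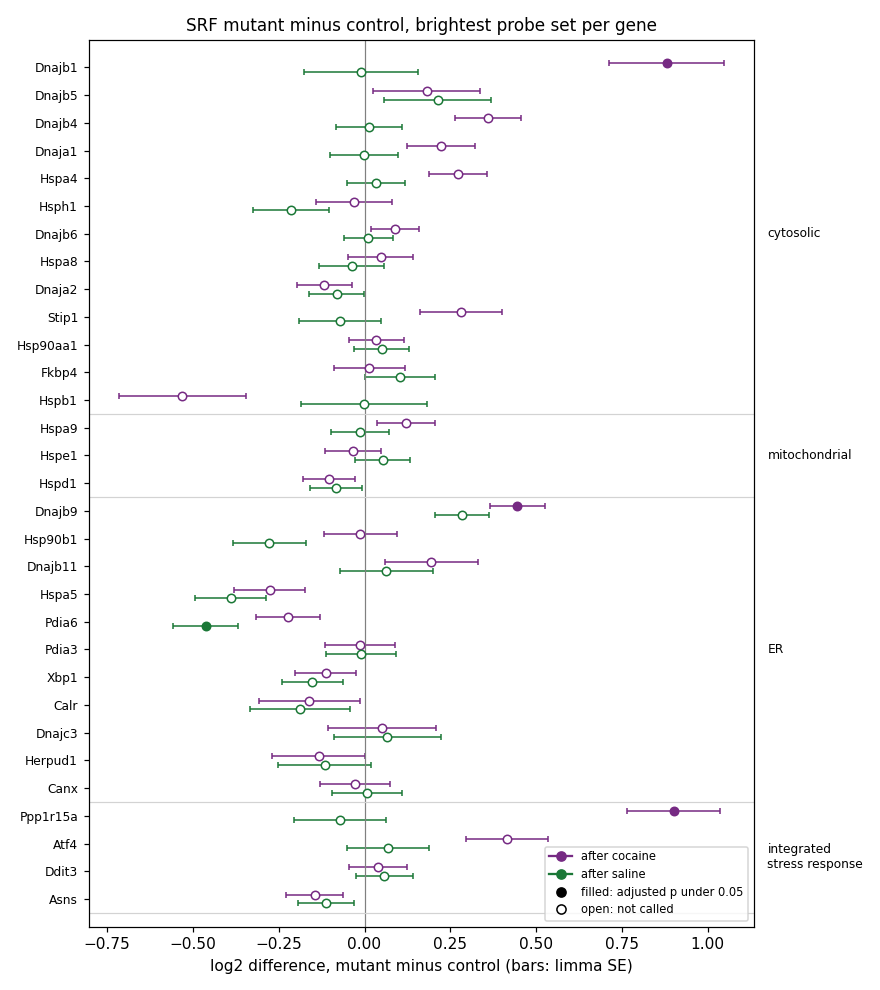
Mutant-minus-control differences in log2 signal (horizontal axis, bars are limma's SE) after cocaine and after saline for the 31 tested members, with the brightest probe set per gene and filled points for called differences. Ppp1r15a and Dnajb1 lie at 0.90 and 0.88 after cocaine and at -0.07 and -0.01 after saline, while Hspa5 and Pdia6 lie left of 0 under both treatments.

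The difference between the genotypes' responses to cocaine was itself tested, and 0 of 62 member probe sets were called in limma, where 0.0721% of all were. At an unadjusted p under 0.05, 8 of the 62 passed (12.9%), where 4.98% of all did, and all 8 had the larger response in mutants. They belonged to Ppp1r15a, Dnajb1, Dnajb4, Hspa4 and Atf4. Ppp1r15a responded more in mutants by 0.97 (95% interval 0.56 to 1.39, adjusted p = 0.178), Dnajb1 by 0.89 (0.38 to 1.40, adjusted p = 0.433), Hspa4 by 0.59 (0.24 to 0.95, adjusted p = 0.51) and Dnajb4 by 0.49 (0.17 to 0.82, adjusted p = 0.698). The brightest probe sets of Hspa4 and Dnajb4 gave smaller values, 0.24 (-0.02 to 0.49) and 0.35 (0.05 to 0.64). For Dnajb5 the difference was -0.03 (-0.51 to 0.45) and for Ddit3 -0.02 (-0.27 to 0.24), intervals that still allow a moderate difference either way. The calls of Dnajb1, Dnajb4, Hspa4, Ppp1r15a and Atf4 with cocaine in mutants but not in controls are therefore not shown to differ between genotypes after adjustment in this fit.

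Averaged over both treatments, single ER members were called between genotypes in opposite directions. Of the 22 tested ER probe sets 3 were lower (13.6%) and 1 higher (4.55%) in mutants. Over all 62 member probe sets 3 were lower (4.84%, against 5.05% of all probe sets) and 5 higher (8.06%, against 4.41% of all). The higher count in the ER class and the lower count over all members lie near the shares of all. Nothing is read from these 2 counts about the members as a group. At an unadjusted p under 0.05, 17 of the 62 passed (23.4% of all). The 5 higher ones belonged to Dnajb1 (0.43 and 0.53), Dnajb4 (0.27), Ppp1r15a (0.41) and Dnajb9. For Dnajb1, Dnajb4 and Ppp1r15a the difference lay mostly in the cocaine-treated arrays. After cocaine Dnajb1 differed by 0.88 and 0.89, Dnajb4 by 0.52 and Ppp1r15a by 0.90. Under saline these values were -0.01 and 0.17, 0.03 and -0.07, none of them called. The call of the brighter Dnajb1 probe set was lost in 7 fits without 1 array (adjusted p 0.0555 to 0.0874), all but those without cocaine-treated mutants 2 or 3, saline-treated mutant 1, cocaine-treated control 2 or saline-treated control 1. That of Dnajb4 was lost in 8 (adjusted p 0.0518 to 0.0901), all but those without cocaine-treated mutants 2 or 3, saline-treated mutant 1 or cocaine-treated control 1. Without the filter the calls of Ppp1r15a (0.0599), Dnajb4 (0.0847), the brighter Dnajb1 probe set (0.12) and the second Hspa5 probe set (0.0526) were lost. The brighter Dnajb4 probe set was not called (0.19, adjusted p = 0.11, and 0.0348 without saline-treated mutant 1). The median over 11 ER genes was -0.12, against -0.02 over all tested genes.

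Hspa5 encodes BiP, the central Hsp70 of the ER. It read 9.21, 8.94 and 9.09 in cocaine-treated mutants, against 9.45, 9.39 and 9.23 in cocaine-treated controls. It read 8.94, 8.90 and 9.06 in saline-treated mutants, against 9.54, 9.24 and 9.29 in saline-treated controls. The mutants lay below the controls under both treatments, by 0.33 on average (1.26-fold, SE 0.0733, adjusted p = 0.0123). Its second probe set was 0.35 lower over both treatments (adjusted p = 0.017, and 0.0526 without the filter) and 0.48 lower under saline (adjusted p = 0.043). That saline call was lost in 8 of the 12 fits without 1 array (adjusted p 0.0575 to 0.122), those without any saline-treated array, without replicate 3 of the cocaine-treated mutants and without replicate 2 of the cocaine-treated controls.

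Pdia6, a protein disulfide isomerase that works beside BiP, read 6.31, 6.46 and 6.56 in cocaine-treated mutants, against 6.70, 6.66 and 6.65 in cocaine-treated controls. It read 6.33, 6.29 and 6.39 in saline-treated mutants, against 6.97, 6.63 and 6.81 in saline-treated controls. No mutant array reached a control array, and the average difference was -0.34 (1.27-fold lower, SE 0.0662, adjusted p = 0.00563). The difference under saline was -0.46 (SE 0.0936, adjusted p = 0.0165), a call lost when saline-treated mutant 1 (adjusted p = 0.052) or 2 (0.0653) or saline-treated control 3 (0.0572) was left out.

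Dnajb9, an ER J-domain partner of BiP, went the other way. It read 7.89, 7.77 and 7.97 in cocaine-treated mutants, against 7.47, 7.47 and 7.36 in cocaine-treated controls. It read 7.70, 7.57 and 7.70 in saline-treated mutants, against 7.44, 7.33 and 7.34 in saline-treated controls. Mutants exceeded controls on every array, by 0.37 on average (1.29-fold, SE 0.056, adjusted p = 0.00117), and by 0.45 after cocaine (adjusted p = 0.0059). Under saline the difference of 0.28 was not called (adjusted p = 0.0811), but passed with the stricter filter (0.0396) and the trended robust prior (0.0492).

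**Figure D4:**
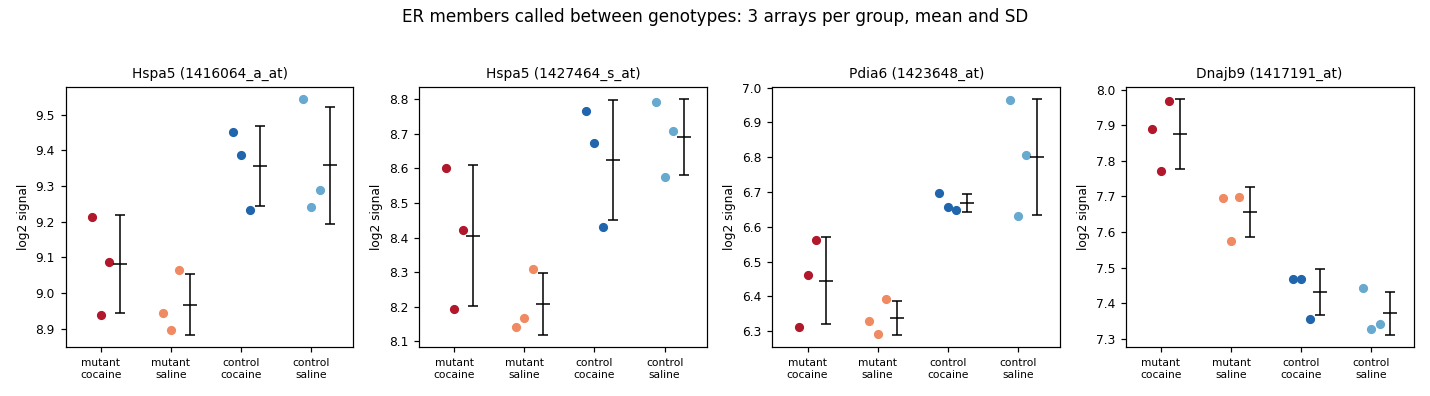
Log2 signal on each array (points, 3 per group) with the group mean and SD (black) for both Hspa5 probe sets, Pdia6 and Dnajb9; each panel has its own vertical range. Hspa5 and Pdia6 are lower and Dnajb9 is higher on mutant arrays, whichever injection was given, with overlap between genotypes only for the second Hspa5 probe set after cocaine.

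The remaining ER members had no called difference in any comparison. Calr, the ER lectin chaperone calreticulin, read 9.05, 9.15 and 9.42 in cocaine-treated mutants, against 9.31, 9.45 and 9.34 in cocaine-treated controls. It read 9.64, 9.05 and 9.05 in saline-treated mutants, against 9.50, 9.32 and 9.49 in saline-treated controls, so the genotypes overlapped. Xbp1, a transcription factor of the unfolded protein response, was lower on all 3 tested probe sets over both treatments, by 0.23, 0.18 and 0.13, and none was called (adjusted p = 0.0788, 0.101 and 0.225). Hsp90b1, the ER Hsp90, gave -0.15 and -0.14 (adjusted p = 0.27 and 0.334). The lectin chaperone Canx, the disulfide isomerase Pdia3, the BiP partners Dnajb11 and Dnajc3 and the degradation factor Herpud1 lay between -0.12 and 0.21 over both treatments. Pdia4 stayed below the filter, at 2.11 to 3.96.

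Among related genes off the list, Atf6, a membrane-bound transcription factor that senses ER stress, was 0.35 higher in mutants over both treatments (adjusted p = 0.00921) and the eIF2α kinase gene Eif2ak3 (PERK) 0.38 higher (adjusted p = 0.0287). Slc3a2, a shared chain of amino acid transporters, was 0.43 higher (adjusted p = 0.000367) and called under each treatment alone. Lower were Phgdh, an enzyme of serine synthesis (-0.36 and -0.42 on 2 of 4 probe sets), Sesn1 (-0.32 on 1 of 3), the lipoprotein receptor gene Vldlr (-0.27 and -0.24) and the Hsp70 gene Hspa2 (-0.34, adjusted p = 0.00644). In all, 0 of 30 further chaperone genes were higher and 1 lower over both treatments, 1 of 20 further ER genes was higher, and of 22 further integrated stress response genes 2 were higher and 3 lower. Together 4.17% of the 72 genes were called higher and 5.56% lower, where 5.55% of all tested genes were called higher and 6.5% lower. Of 7 striatal projection neuron markers, 4 were higher in mutants (Pdyn, Tac1, Penk and Pde10a) and Rgs9 was lower; Gfap, 1 of 8 astrocyte markers, was higher on 1 of its 2 probe sets (0.80, adjusted p = 0.0018). The part of these marker differences in the ER results was not tested.

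The promoters of the ER genes that differed are shown for comparison. The ER stress element was found in 6 of 45 member promoters (13.3%, against 0.113% of all), those of Hspa5, Pdia6, Calr, Canx, Dnajc3 and Hsp90b1. It lay 65 to 47 bases upstream of the Hspa5 start and 98 to 80 bases upstream of the Pdia6 start, both lower in mutants, and was not matched before Dnajb9, where the capitals mark a CRE half-site. The other 4 genes with the element were not called.
Hspa5 (chr2:34771940-34772089, plus strand): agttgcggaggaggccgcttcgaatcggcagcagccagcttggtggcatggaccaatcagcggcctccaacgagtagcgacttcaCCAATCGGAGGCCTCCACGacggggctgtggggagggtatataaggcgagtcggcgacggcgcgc
Pdia6 (chr12:17266439-17266588, plus strand): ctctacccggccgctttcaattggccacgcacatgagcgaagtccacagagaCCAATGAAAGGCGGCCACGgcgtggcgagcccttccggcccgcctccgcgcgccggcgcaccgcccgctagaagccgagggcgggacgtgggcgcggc
Dnajb9 (chr12:44210069-44210218, minus strand): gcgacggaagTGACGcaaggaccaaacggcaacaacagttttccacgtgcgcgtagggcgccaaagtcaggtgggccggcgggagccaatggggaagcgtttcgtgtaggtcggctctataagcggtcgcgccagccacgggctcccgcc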

How the data were processed

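RNA was measured on 12 arrays of mouse striatum. The deposited log2 signals, 1 per probe set and array, are the authors' GCRMA values; the submitters' processing notes name R 2.4.1. No log base or option is recorded there, and log2 was taken from the range of 1.26 to 13.1. GCRMA compresses dim values, and normalisation between arrays (medians 3.75 to 3.78) hides any shift common to all genes. Probe sets were named through the platform annotation when it gave exactly 1 symbol (20393 of 22690; 691 had several and 1606 none). After 64 control probe sets were removed, 11102 with a log2 signal above 4 on at least 3 arrays were tested in limma 3.58.1 (R 4.3.3): 4 group means, all 12 arrays, empirical Bayes, Benjamini-Hochberg adjustment over all tested, called under 0.05. Arrays within a group are biological replicates per the titles, and their number limits the precision. The steps were tested on simulated data. The members, classes and lists were chosen with earlier results of these data known. Genes with per-array values are those called in any of 7 comparisons and the brightest uncalled gene per class. The titles' replicate numbers repeat across groups but did not pair arrays. Alternatives were other filters, array weights, a trended robust prior, a replicate block, quantile normalisation, fits of 2 groups and leaving out each array.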

Additional observations from a re-analysis of the deposited data

How the results depend on the processing

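The 7 comparisons were refitted under up to 19 alternatives, 12 of them leaving out 1 array. Of the 41 calls on single member probe sets, 26 held under every alternative run, 15 were lost under at least 1 and 0 turned direction. For cocaine in controls, 3 member probe sets were called, with 5 under array weights, 6 with the trended robust prior and 2 to 5 with 1 array left out (5 without cocaine-treated mutant 1). For mutants against controls under saline 2 were called, with 1 without the filter, 4 with the stricter filter (a log2 signal above 6), 4 with the trended robust prior, 0 with the saline-treated groups alone and 0 to 2 with 1 array left out (0 without saline-treated mutant 1 or 2 or saline-treated control 3). After cocaine 5 were called, with 8 under the trended robust prior, and over both treatments 8, with 4 without the filter. With 1 array left out the counts were 9 to 13 for cocaine in mutants (12 with all), 10 to 12 averaged over genotypes (11 with all), 4 to 7 and 6 to 11 for the genotypes after cocaine and over both treatments, and 0 for the difference in response. The replicate numbers did not pair the arrays (1 of 18 same-number pairs correlated above 0.1, range -0.145 to 0.116); the replicate block gave 10 calls for cocaine in mutants, and for the difference in response 1 in place of 0, Ppp1r15a (0.97, adjusted p = 0.0483). Without the filter, dim genes at the background entered the integrated stress response median, which was 0.22 for cocaine in mutants, 0.056 in controls, 0.11 averaged, 0.027 for genotype after cocaine and -0.017 for genotype over both treatments. With all tested probe sets in place of 1 per gene that median was 0.18 for cocaine in controls and 0.36 averaged, the cytosolic median of the difference in response was 0.17, and the mitochondrial medians were -0.041 for cocaine in controls and 0.039 for genotype after cocaine. The cause of the other changes was not tested. Signals near background limit the 8 members with no tested probe set.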
